A study of Mus musculus with 24 samples.

Results

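Endometriotic lesions taken 1 month after surgery were compared with uterus of sham-operated mice of the same time point, to ask how uterine tissue growing outside the uterus differs in gene expression from uterus in place. The comparison rests on 8 of the 24 libraries of the series, 4 of lesions (ectopic tissue) and 4 of sham uterus, chosen by their labels. The lesion libraries are labelled Pgrcre/+Rosa26mTmG/+ and the sham libraries Rosa26mTmG/+, on a mixed C57BL/6 and SV129 background. In the first genotype, Cre recombinase is driven from the progesterone receptor locus, and the mTmG allele is a membrane fluorescence reporter that switches colour after Cre acts. The series text gives the Cre genotype to the mice with endometriosis as a whole, while the labels give it to the lesions and not to the uterus of mice with the disease. By either source, genotype cannot be told apart from tissue and surgery between lesions and sham uterus. Surgery, to induce endometriosis or as sham, was done at 8 weeks of age, the mice were mated 1 month later, and tissue was collected on pregnancy day 3.5. All mice at 1 month are labelled fertile, in both groups. Where they help to place a value, the eutopic uterus of mice with endometriosis at 1 month (4 libraries, labelled Rosa26mTmG/+) and the lesions and sham uterus at 3 months (4 libraries each) are given beside it.

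As background, endometriosis is the growth of endometrium, the lining of the uterus, at other sites, most often on the peritoneum. The normal endometrium is governed by estrogen and progesterone. Around pregnancy day 3.5 in the mouse, progesterone acting on the epithelium and stroma prepares the uterus for the attachment of the embryo, and glands secrete leukaemia inhibitory factor, which implantation requires. Lesions in patients and in mouse models are known for immune cell infiltration, local inflammation and altered steroid response.

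Read counts per gene were summed to totals of 4.51e+07 to 5.91e+07 in lesions and 5.36e+07 to 5.89e+07 in sham uterus. Across genes, which are not independent replicates, pairs of lesion libraries that include library 2 correlated at 0.959 to 0.969 in log2 CPM (read counts scaled to the library total), other lesion pairs at 0.979 to 0.984 and sham pairs at 0.978 to 0.988. Levels below are CPM scaled by TMM library factors, listed in the order of library number 1 to 4, and genes were called at an edgeR quasi-likelihood adjusted p under 0.05 in a fit of all 24 libraries. Of 22249 genes tested, 3335 were called (15.0%), 2105 of them higher in lesions (9.46%) and 1230 lower (5.53%). The median log2 fold change over all tested genes was -0.01, and 6596 genes had an unadjusted p under 0.05. No label says that each library came from a separate mouse, so the p-values measure the spread between these samples.

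The count of called genes depended on single libraries. Without lesion library 2, which carried pancreas transcripts, 1740 of 22759 genes were called (7.65%), 1116 higher (4.90%) and 624 lower (2.74%), and 1680 genes were called both with and without it. Without lesion library 4 the count was 1720, and without sham libraries 2, 3 and 4 it was 2213, 1908 and 2169. With only the 8 compared libraries in the fit, so that the other 16 no longer entered the estimate of the spread, 5923 of 20002 genes were called (29.6%), 16.7% higher and 12.9% lower, and 4996 of 20372 (24.5%) when lesion library 2 was also left out. For genes named by the rule stated under processing, calls lost with 1 library left out are given with that value. Lists whose count then moved by over 1.5 times are given likewise. Other called list members, such as Ifit3, Stat2, Dnajc3 and Fzd2, were followed gene by gene only in the fit without lesion library 2. List counts below are to be read beside the shares of all tested genes in the same fit.

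Lesion library 2 held transcripts of the exocrine pancreas at levels far beyond any other library. The 22 pancreas genes of the marker list summed to 6.31, 133275, 27.3 and 29.8 CPM in lesions and to 4.96, 6.99, 6.78 and 6.66 CPM in sham uterus, and in lesion library 2 they made up 11.1% of all counts. Ctrb1, the digestive protease precursor chymotrypsinogen B, stood at 0, 25582, 4.29 and 2.72 CPM in lesions and at 0 counts in all sham libraries, so that its level over the lesion libraries together was at least 495168-fold higher, against a floor of 3 counts over the sham group. Pnlip, pancreatic lipase, stood at 0.0536, 19678, 3.27 and 2.55 CPM in lesions, against 0.0996, 0.141, 0.0535 and 0.0337 CPM in sham uterus, and Pnliprp1, a related lipase, at 0.0536, 6036, 1.16 and 0.856 CPM, against 0, 0.0706, 0.0178 and 0 CPM. Lesion libraries 3 and 4 thus also lay above all sham libraries in these 3 genes, at a few CPM, while lesion library 1 did not. All 11 tested members of the list were called higher with lesion library 2 (9.46% of all tested genes were), and 4 of 11 without it (4.90% of all tested genes). Without lesion library 1, and likewise without sham library 1, 2 or 4, 17 members were called, since the filter then let more of them in.

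Among protein-coding genes with a mean log2 CPM of at least 0 over the 8 libraries, the 5 largest rises that were called with all libraries and not without lesion library 2 were Cpb1, Rnase1, Ctrl, Klk1 and Cela1, which encode pancreatic carboxypeptidase B, pancreatic ribonuclease, a chymotrypsin-like protease, a kallikrein and an elastase. Cpb1 was at 9545 CPM in lesion library 2 and 0.358, 1.76 and 1.71 CPM in the other 3 lesion libraries, against 0.624 to 0.918 CPM in sham uterus. The fitted log2 fold change came to 11.52 ± 2.33 (SE; edgeR, adjusted p = 0.00393) with all libraries and 0.65 ± 0.4 (adjusted p = 0.342) without lesion library 2. Without that library the adjusted p was 0.843 for Rnase1, 0.0773 for Ctrl, 0.2995 for Klk1 and 0.472 for Cela1, in the edgeR fit. Cela3b, another pancreatic elastase, lost its call in the same way (adjusted p = 0.0594).

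Skeletal muscle genes also stood apart in lesion library 2. Their list summed to 257, 1797, 245 and 137 CPM in lesions, against 175, 358, 236 and 179 CPM in sham uterus. Of 14 tested members 6 were called higher with all libraries, 0 of 14 without lesion library 2, 3 without sham library 2, and 2 without sham library 3 or 4. Atp2a1, the calcium pump of fast muscle fibres, was at 5.76, 232, 0.514 and 0.419 CPM in lesions, against 0.125 to 0.216 CPM in sham uterus, and Myh1, a fast muscle myosin, at 8.13, 219, 0.0184 and 0.105 CPM, against 0 to 0.0713 CPM. Their adjusted p without lesion library 2 was 0.1296 and 0.0614 (edgeR). Myh4, another fast myosin at 0 counts in sham uterus, and Pvalb, the calcium buffer parvalbumin, were at 198 and 33.7 CPM in lesion library 2 and at most 1.38 and 0.358 CPM in the others; without it their adjusted p was 0.292 and 0.4201. Leaving out any 1 sham library also ended the call of Myh4 (adjusted p 0.0681 to 0.0751), and leaving out sham library 3 or 4 that of Pvalb (adjusted p 0.0564 and 0.0534). The intestine list summed to 7.97, 212, 9.58 and 8.996 CPM in lesions, against 12.6, 16.3, 14.98 and 16.1 CPM in sham uterus, again with lesion library 2 highest. The actin Acta1, which muscle layers can share, overlapped between the groups, at 102 to 542 CPM in lesions and 136 to 298 CPM in sham uterus.

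**Figure D1:**
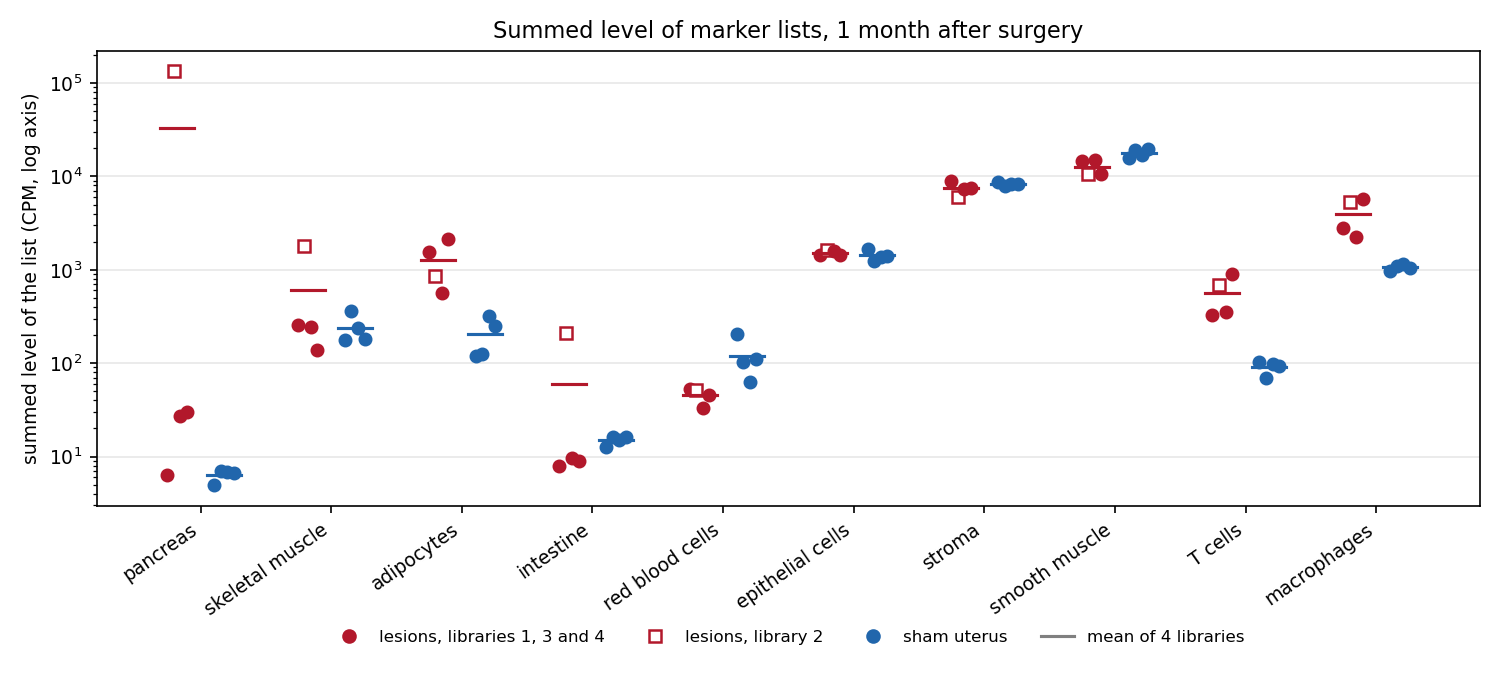
Summed level of 10 marker lists in each library (CPM, log axis), for lesions (red, left; open square, library 2) and sham uterus (blue, right) at 1 month, with bars at the mean of 4 libraries. The pancreas list reaches 133275 CPM in lesion library 2 and 6.31 to 29.8 CPM in the other lesion libraries. The epithelial and stromal lists overlap between the groups. The smooth muscle list lies at 10676.5 to 15080 CPM in lesions, below all sham libraries at 15629 to 19656 CPM.

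The summed level of fat cell genes was higher in all lesion libraries than in sham uterus, and library 2 was not the highest of them. The adipocyte list summed to 1559, 864, 564 and 2131 CPM in lesions, against 118, 126, 319.8 and 248 CPM in sham uterus. The groups did not overlap. Its median log2 fold change was 3.0 over 13 tested members, but 2 of them were called (2 without lesion library 2, and 5 with only the compared libraries in the fit). The shares of all tested genes called higher in these 3 fits were 9.46%, 4.90% and 16.7%. Lpl, the lipase that releases fatty acids from lipoproteins and is also made by macrophages, was at 342, 405, 225 and 529 CPM in lesions, against 58.1, 67.7, 107 and 74.2 CPM in sham uterus (log2 fold change 2.29 ± 0.59; edgeR, adjusted p = 0.01398). Pparg, the master regulator of fat cell formation, was at 9.58, 8.01, 4.18 and 14.6 CPM, against 2.14, 1.89, 2.44 and 2.56 CPM (log2 fold change 2.01 ± 0.39; adjusted p = 0.00354). Car3, a carbonic anhydrase abundant in fat, was at 512, 227, 117 and 585 CPM in lesions and 6.06, 12.5, 77.1 and 54.5 CPM in sham uterus, without overlap, and did not pass the test (adjusted p = 0.0734). The part of adjoining fat in other differences was not tested. In such bulk tissue, more cells of a type and more RNA per cell cannot be told apart, here and for every cell type below.

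The identity of the lesions as uterine tissue was checked on its markers. The lists of pan-epithelial and smooth muscle genes held 0 called members in either direction, of 20 and 18 tested, with median log2 fold changes of 0.06 and -0.4. With only the compared libraries in the fit, 4 epithelial members were higher and 0 lower, and 0 smooth muscle members were higher and 7 lower. Of all genes tested there, 16.7% were higher and 12.9% lower. Summed levels were 1424, 1616, 1605 and 1452 CPM of epithelial genes in lesions, against 1652, 1251, 1379.9 and 1411 CPM in sham uterus, which overlapped. Smooth muscle sums did not overlap, at 14455, 10694, 15080 and 10676.5 CPM in lesions, against 15629, 19324, 16859 and 19656 CPM in sham uterus. Of 18 stromal genes, Cd34, a surface protein of stromal and vessel cells, was the one called. It was at 372, 188, 309.8 and 277 CPM in lesions and 463, 525, 537 and 572 CPM in sham uterus, and the call ended without lesion library 2 or 4 (edgeR, adjusted p = 0.0707 and 0.0546). Of the 12 mesothelium genes, which mark the lining of the peritoneum, 2 were higher and 0 lower, and 1 was lower without lesion library 1 or 3. The log2 fold change was positive in 11 of them, with a median of 0.71. With only the compared libraries, 9 were higher and 0 lower (16.7% and 12.9% of all genes tested there). Prg4, the lubricating proteoglycan of serous and joint surfaces, was at 11.5, 20.4, 7.25 and 8.77 CPM in lesions, against 1.08, 0.583, 0.446 and 0.371 CPM in sham uterus (log2 fold change 4.26 ± 0.8; adjusted p = 0.00258). Muc16, the mucin detected as CA125, was at 18.6, 6.596, 5.82 and 7.72 CPM, against 3.69, 3.57, 3.66 and 4.47 CPM, with an adjusted p of 0.0457 that held in a single one of the 8 fits that each left out 1 library, the one without lesion library 3 (0.05598 to 0.213 in the others). Wt1, a member of the list that sham uterus also expressed, overlapped between the groups, at 95.8 to 144 CPM in lesions and 144 to 172 CPM in sham uterus. So did Aldh1a2, a retinoic acid synthesis enzyme, at 92.7 to 128 and 81.3 to 147 CPM.

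The steroid receptors Pgr and Esr1 were not called between lesions and sham uterus in the fit of all libraries. Pgr (ENSMUSG00000031870.17), the progesterone receptor, was at 221, 142, 209.9 and 164 CPM in lesions and 236, 297, 191 and 221 CPM in sham uterus, and the groups overlapped (log2 fold change -0.36 ± 0.57; edgeR, adjusted p = 0.721). Since Cre was inserted at this locus in the lesion genotype, reads from that allele may count differently, which was not tested. Esr1 (ENSMUSG00000019768.17), the estrogen receptor alpha, was at 441, 253, 428 and 323 CPM in lesions and 600.1, 571, 439 and 538 CPM in sham uterus, with an adjusted p of 0.147 in the fit of all libraries and 0.0429 with only the compared libraries. Hoxa10 and Hoxa11 are homeobox genes of uterine identity. Hoxa10 (ENSMUSG00000000938.12) averaged 304 ± 67.4 CPM in lesions and 413 ± 41.6 CPM in sham uterus (SD, n = 4 each), and the groups overlapped. Hoxa11 (ENSMUSG00000038210.11) averaged 185 ± 33.8 CPM in lesions and 311 ± 30.4 CPM in sham uterus (SD, n = 4 each), without overlap. Its adjusted p was 0.539 with all libraries in the edgeR fit and 0.00473 with only the compared ones. Of 17 tested patterning genes, 3 were lower and 0 higher, with a median of -0.54 (5.53% of all tested genes were lower). With only the compared libraries in the fit, 9 were lower and 1 higher (12.9% and 16.7% of all genes tested there). The calls of Hoxd9 and Hoxa13, -0.69 and -3.46 on the log2 scale, ended without lesion library 2 (adjusted p = 0.125 and 0.111) and without sham library 2 (0.0746 and 0.0836). Hoxd9 was also lost without lesion library 4 or sham library 3 or 4, and Hoxa13 without lesion library 1 or 3 or sham library 1.

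Among 16 steroid receptors and cofactors, 1 rose and 1 fell (9.46% and 5.53% of all tested genes did). Ncoa3, a coactivator of steroid receptors, rose to 109.8, 137, 111 and 147 CPM in lesions, against 83.96, 78.8, 64.9 and 79.6 CPM in sham uterus (log2 fold change 0.72 ± 0.17; edgeR, adjusted p = 0.00804). Pgrmc2, a membrane-bound haem-binding protein of the progesterone receptor membrane component family, fell to 96.4, 73.6, 92.7 and 82.5 CPM, against 121, 114, 118 and 126 CPM (log2 fold change -0.47 ± 0.1; adjusted p = 0.00421). Both calls held in all 8 fits that left out 1 library, and all lesion libraries lay outside the range of the sham libraries.

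The epithelial and stromal mediators of progesterone were lower in value, and most did not pass the test. Ihh (ENSMUSG00000006538.13), the hedgehog ligand that carries the progesterone signal from epithelium to stroma, was at 30.3, 14.2, 31.1 and 17.7 CPM in lesions and 36.3, 44.6, 38.7 and 46.9 CPM in sham uterus (log2 fold change -0.84 ± 0.64; adjusted p = 0.4099 with all libraries and 0.0318 with only the compared ones, edgeR). Hand2 (ENSMUSG00000038193.5), the stromal transcription factor that restrains estrogen action on the epithelium, was at 55.01, 34.6, 76.6 and 43.5 CPM in lesions and 115, 86.8, 118 and 85.5 CPM in sham uterus (log2 fold change -0.95 ± 0.48; adjusted p = 0.19 and 0.01605 in the same fits). In neither gene did the groups overlap. Of 23 genes of the pathway, 3 fell and 1 rose, with a median of -0.47, and with only the compared libraries 10 fell and 3 rose (12.9% and 16.7% of all genes tested there). Hsd11b2, which inactivates corticosterone, fell to 100.2, 40.03, 106 and 86.6 CPM, against 194, 330.4, 254 and 246 CPM (log2 fold change -1.62 ± 0.41; adjusted p = 0.01295). The activin-binding protein Fst was at 29.2, 16.7, 28.01 and 22.4 CPM in lesions and 100.2, 88.9, 128 and 104.7 CPM in sham uterus. The groups did not overlap. The call of Fst (log2 fold change -2.13 ± 0.65; adjusted p = 0.0317) survived in the fit without lesion library 1 and was lost in the other 7 (0.0502 to 0.0968). Without lesion library 2 or 4, or without any 1 sham library, 1 gene of the pathway was called lower. Wnt4, a Wnt ligand of the stromal decidual response, went the other way, with 35.2, 46.8, 36.9 and 53.6 CPM in lesions, against 4.67, 6.66, 5.51 and 4.72 CPM in sham uterus (log2 fold change 3.0 ± 0.58; adjusted p = 0.00335). Bmp2 (ENSMUSG00000027358.7), a bone morphogenetic protein that decidualisation requires, overlapped between the groups, at 9.26, 8.88, 10.6 and 10.7 CPM in lesions and 7.11, 6.497, 8.95 and 8.59 CPM in sham uterus (adjusted p = 0.55).

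**Figure D2:**
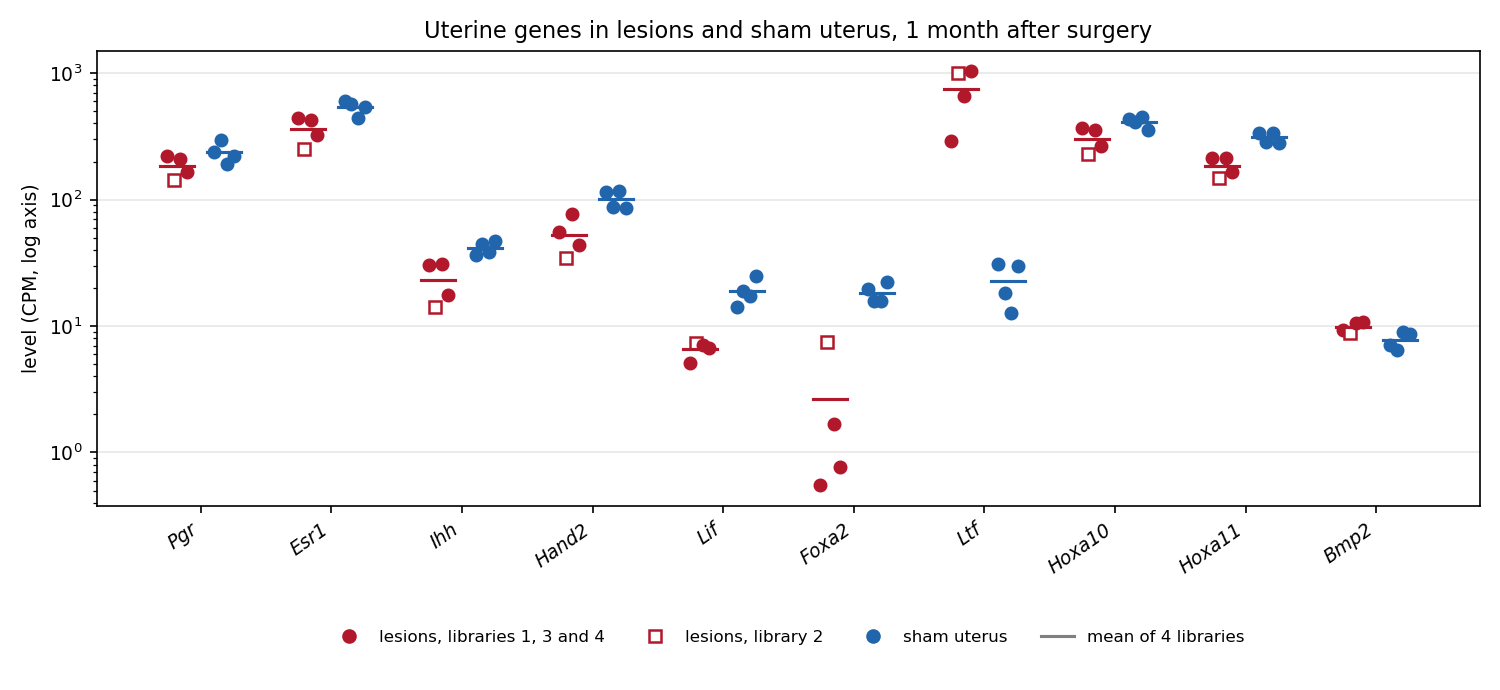
Level of 10 uterine genes in each library (CPM, log axis), for lesions (red, left; open square, library 2) and sham uterus (blue, right) at 1 month, with bars at the mean of 4 libraries. Foxa2 lies at 0.554 to 7.50 CPM in lesions, below all sham libraries at 15.7 to 22.3 CPM, and Ltf lies above all sham libraries, while Pgr, Esr1, Hoxa10 and Bmp2 overlap.

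Genes of uterine glands were called lower in lesions. Foxa2 (ENSMUSG00000037025.12), the transcription factor that gland formation and function require, fell to 0.554, 7.501, 1.69 and 0.769 CPM in lesions, against 19.5, 15.8, 15.7 and 22.3 CPM in sham uterus. The fitted log2 fold change came to -2.82 ± 0.68 (edgeR, adjusted p = 0.01002) with all libraries and -4.19 ± 0.63 (adjusted p = 0.00131) without lesion library 2. In that library, which held the pancreas transcripts, Foxa2 was highest among lesions, and pancreas is known to express this gene too. Cxcl15, a chemokine made by uterine glands, fell to 1.001, 0.612, 4.07 and 1.24 CPM in lesions, against 40.8, 63.4, 49.5 and 75.4 CPM in sham uterus (log2 fold change -5.03 ± 0.8; adjusted p = 0.000929). Wfdc3, a whey acidic protein domain gene, fell to 0.304, 0.186, 0.918 and 0.367 CPM, against 11.3, 11.95, 12.5 and 11.8 CPM (log2 fold change -4.72 ± 0.53; adjusted p = 7.61e-05). The paired gland proteases Prss28 and Prss29 were nearly absent from lesions, with at most 0.0918 and 0.0734 CPM, and uneven among sham libraries. Prss29 was at 23.4, 0.759, 15.4 and 0.8099 CPM and Prss28 at 14.7, 0.406, 5.89 and 0.658 CPM in sham uterus, high in libraries 1 and 3. Their calls (log2 fold changes -8.87 ± 2.29 and -7.44 ± 1.92; adjusted p = 0.01396 and 0.0138) were lost without lesion library 4 (adjusted p = 0.0512 and 0.0506). As close paralogs, they may share reads.

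In the gland list 5 of 14 tested members fell and 1 rose (5.53% and 9.46% of all tested genes). Without lesion library 2, 7 of 14 fell and 0 rose, and without lesion library 4 the list had 3 falls. The riser was Klk1, at 1092 CPM in lesion library 2 and 0.2503, 0.624 and 1.22 CPM in the others, against 0.253 to 0.382 CPM in sham uterus. Klk1 is also a pancreas gene, as is Spink1, a trypsin inhibitor of the same list. Spink1 was at 0.107, 341, 1.101 and 0.0873 CPM in lesions and 113, 7.804, 120.4 and 30.4 CPM in sham uterus, where libraries 1 and 3 were again high, and it was called lower without lesion library 2 (adjusted p = 0.0143) but not with it (0.912). Aldh1a1, Gpx3, Hp, Lgr5 and Prom1 of the gland list were not called.

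Lif (ENSMUSG00000034394.15), the gland-derived cytokine of implantation, was at 5.08, 7.29, 7.08 and 6.74 CPM in lesions and 14.1, 18.8, 17.2 and 25. CPM in sham uterus. All lesion libraries lay below all sham libraries (log2 fold change -1.52 ± 0.56; edgeR, adjusted p = 0.0727 with all libraries and 0.00156 with only the compared ones), and eutopic uterus lay at 6.19 to 11.96 CPM, below all sham libraries. The receptor subunits through which it acts were called in opposite directions. Il6st, the shared signalling chain gp130, fell to 827, 640.1, 737 and 681 CPM in lesions, against 1393, 1358, 1039 and 1421 CPM in sham uterus (log2 fold change -0.85 ± 0.2; adjusted p = 0.007802). Lifr, the ligand-binding chain, was at 67.5, 91.2, 55.1 and 83.5 CPM in lesions, against 48.5, 39.2, 36.1 and 41.1 CPM in sham uterus, and its call (adjusted p = 0.0373) ended without lesion library 2 or 4 or sham library 2, 3 or 4 (0.0792 to 0.116). Spp1, osteopontin, a ligand of integrins that macrophages also make, rose to 103, 375, 115 and 518 CPM, against 15.5, 17.4, 36.8 and 14.1 CPM (log2 fold change 3.73 ± 0.97; adjusted p = 0.0141). Ptgs2, the inducible prostaglandin synthase, was at 6.33, 19.5, 20.5 and 8.105 CPM, against 1.43, 2.56, 1.69 and 2.68 CPM (log2 fold change 2.7 ± 0.73; adjusted p = 0.0178), a call lost without lesion library 2 or sham library 1 or 3 (adjusted p 0.0533 to 0.0577). In all, 3 of 22 implantation genes were higher and 1 lower (9.46% and 5.53% of all tested genes were), and without lesion library 2, and likewise without sham library 3, 1 was higher.

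Several genes known as estrogen targets in uterine epithelium rose. Ltf (ENSMUSG00000032496.8), lactoferrin, the classical estrogen-induced secretory protein of mouse uterus, rose to 293, 1001, 664 and 1032 CPM in lesions, against 31.05, 18.3, 12.6 and 29.6 CPM in sham uterus (log2 fold change 5.03 ± 1.28; edgeR, adjusted p = 0.0131). Leaving out lesion library 2 gave 4.85 ± 1.32 (adjusted p = 0.0326). Lcn2, the iron-chelator-binding lipocalin, rose to 40.3, 197, 173 and 254 CPM, against 3.82, 2.12, 5.404 and 1.79 CPM (log2 fold change 5.66 ± 1.46; adjusted p = 0.01396). Sprr2b, a small proline-rich cornification protein, was at 2.18, 15.1, 23.9 and 18.9 CPM in lesions, against 0.0498, 0, 0 and 0 CPM in sham uterus (adjusted p = 0.00676). Ltf and Lcn2 are also products of neutrophils, whose markers are described below and were likewise higher. The call of Sprr2d (adjusted p = 0.0289) survived in the fit without lesion library 1 and was lost in the other 7 (0.0522 to 0.0825), and the Sprr2 genes are close paralogs whose reads the counting could split. Of 22 tested targets 8 rose and 0 fell (median 1.64), and 6 rose without lesion library 2. The estrogen-regulated genes Greb1 and Igf1 were not called, at log2 fold changes of -0.27 and -0.9.

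Of 16 luminal epithelium genes 4 rose, and 2 without lesion library 2 (9.46% and 4.90% of all genes tested in these fits). Il1rn, the antagonist of the interleukin 1 receptor, which macrophages also make, rose to 12.01, 45.6, 20.3 and 33.1 CPM in lesions, against 0.731, 0.689, 1.37 and 0.641 CPM in sham uterus (log2 fold change 5.01 ± 0.9; edgeR, adjusted p = 0.00208). Atp6v0d2, a proton pump subunit also known from osteoclasts and macrophages, rose to 17.6, 61.5, 24.4 and 69.8 CPM, against 1.66, 4.01, 2.35 and 1.21 CPM (log2 fold change 4.23 ± 0.73; adjusted p = 0.00155). The chloride channel Cftr and the anion exchanger Slc26a4 were higher without overlap, at 10.4 to 20.2 and 1.13 to 17.3 CPM in lesions, against 1.23 to 2.895 and 0.547 to 1.07 CPM in sham uterus. Their calls (adjusted p = 0.0379 and 0.0449) survived without lesion library 1 and were lost in the other 7 fits, those without lesion library 2, 3 or 4 or any 1 sham library (0.0515 to 0.101 and 0.0615 to 0.117).

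**Figure D3:**
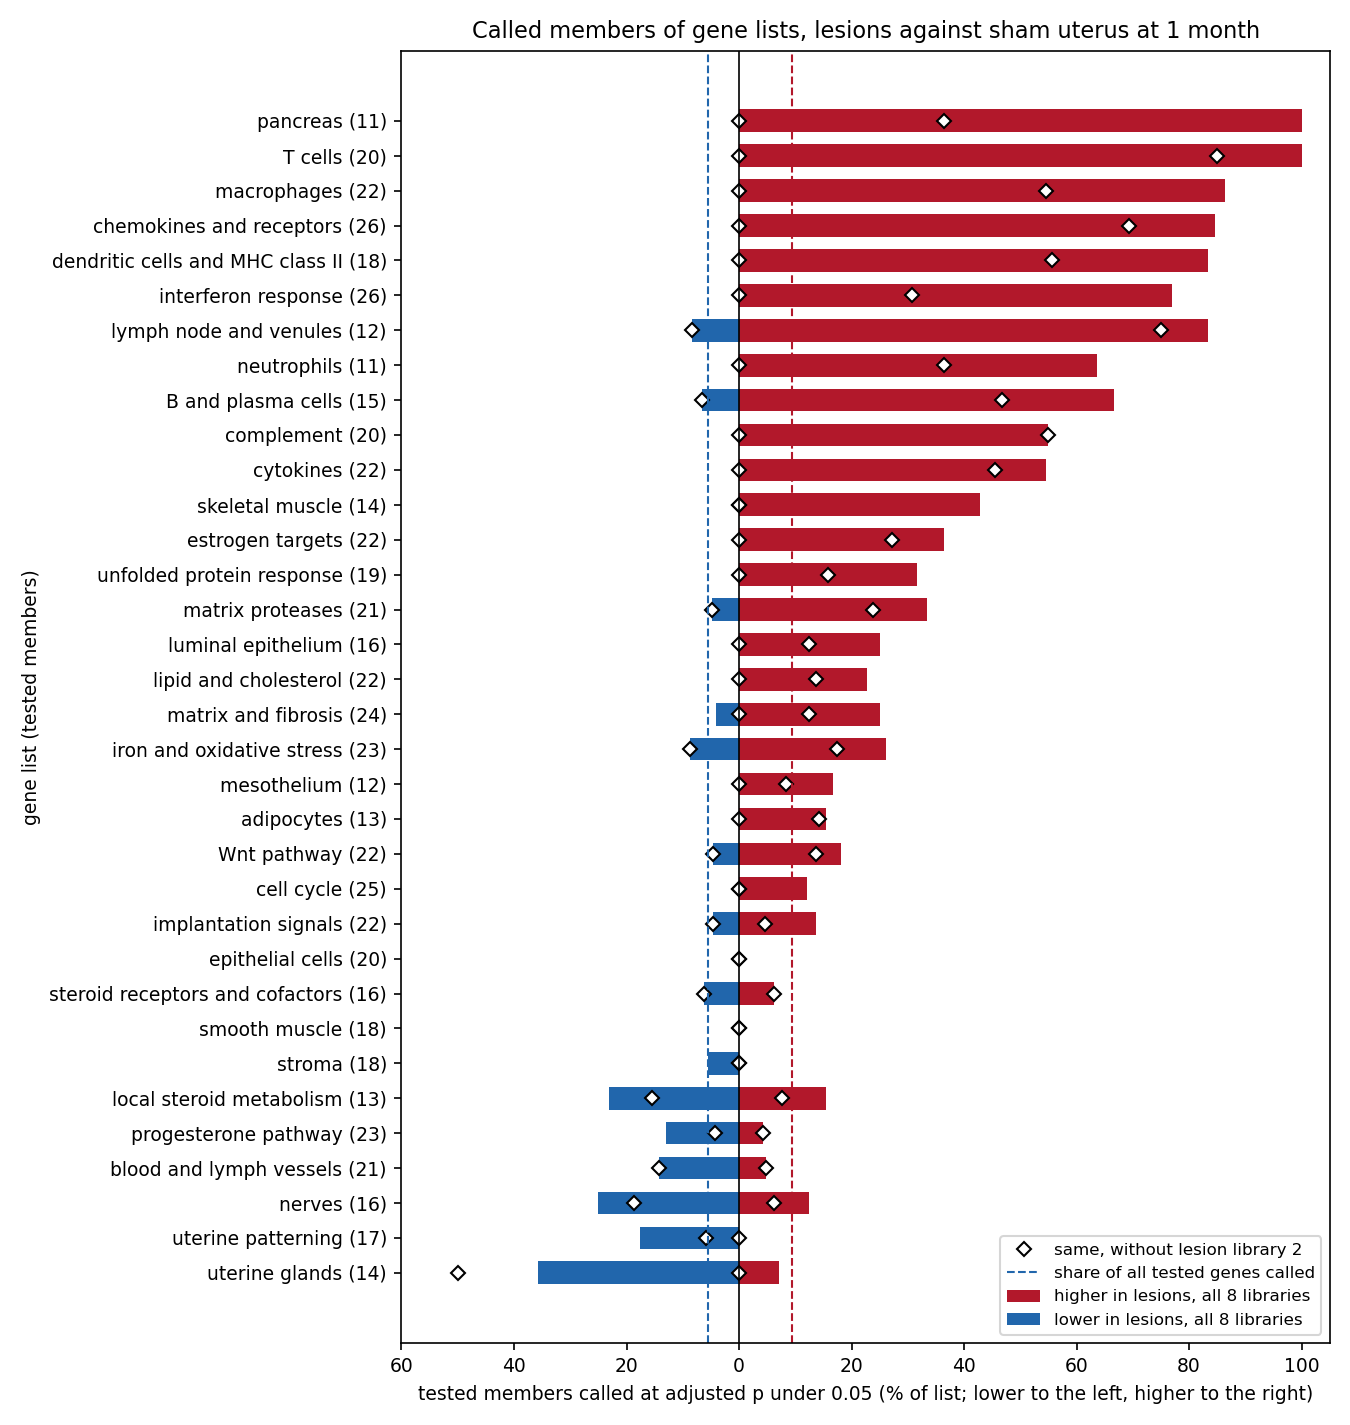
Share of tested members called higher (red, to the right) or lower (blue, to the left) in lesions than in sham uterus at 1 month, for 34 gene lists with the number of tested members in brackets; open diamonds give the same without lesion library 2. Dashed lines mark the 9.46% and 5.53% of all tested genes that were called higher and lower; the pancreas and T cell lists reach the right edge, and the uterine gland list lies furthest to the left.

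T cell genes were higher in lesions. All 20 of 20 T cell genes rose (9.46% of all tested genes did), with a median log2 fold change of 3.12. The count was 17 without lesion library 2, 15 without lesion library 4 or sham library 4, and 16 to 20 without any other 1 library. Their summed level was 329, 692, 349.7 and 894 CPM in lesions, against 104, 69.05, 97.4 and 92.5 CPM in sham uterus and 88.4 to 95.4 CPM in eutopic uterus. Cd4, the co-receptor of helper T cells, was at 25.7, 61.3, 24.6 and 76.1 CPM in lesions and 2.76, 2.401, 2.18 and 3.31 CPM in sham uterus (log2 fold change 4.14 ± 0.72; edgeR, adjusted p = 0.00161). Foxp3, which defines regulatory T cells, was at 5.92, 12.05, 5.21 and 19.1 CPM, against 0.166, 0.106, 0.232 and 0.219 CPM (log2 fold change 5.85 ± 1.01; adjusted p = 0.00153). Ctla4, an inhibitory receptor of regulatory and activated T cells, and Il7r, the interleukin 7 receptor chain of resting T cells, rose by 5.0 ± 1.06 and 4.26 ± 0.79 (adjusted p = 0.00494 and 0.00248). Lesion libraries 2 and 4 held the highest T cell sums, libraries 1 and 3 lower ones, and all lay above sham uterus.

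B cell genes rose as well, while genes of antibody-secreting cells did not pass the test in the fit of all libraries. Ms4a1, the B cell surface protein CD20, was at 26.8, 36.7, 6.44 and 37.9 CPM in lesions, against 0.116, 0.353, 0.161 and 0.304 CPM in sham uterus (log2 fold change 6.84 ± 0.85; edgeR, adjusted p = 0.000146). Pax5, which commits cells to the B lineage, was at 11.8, 21.8, 3.51 and 19.8 CPM, against 0.0664, 0.106, 0.0892 and 0.152 CPM (log2 fold change 7.07 ± 0.9; adjusted p = 0.0001799). Spib, a transcription factor of B cells and plasmacytoid dendritic cells, rose by 4.2 ± 0.7 (adjusted p = 0.00116). In each of these genes lesion library 3 was the lowest lesion library, and it still exceeded every sham library. Of 15 tested members 10 rose and 1 fell, and 7 and 1 without lesion library 2. With only the compared libraries in the fit, 13 rose and 1 fell (16.7% and 12.9% of all genes tested there did). The one that fell was Ebf1, a B lineage factor that stromal and fat precursor cells also express. The plasma cell genes Jchain, Mzb1 and Tnfrsf17 had log2 fold changes of 1.24, 1.19 and 1.25 and were not called in the fit of all libraries. By the count with only the compared libraries, not all of them stayed without a call there.

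Genes of lymphoid follicles and B cell attraction rose. Cxcl13, a B cell attractant of lymphoid follicles, rose to 81.1, 149.6, 21.2 and 86.1 CPM in lesions, against 0.814, 0.494, 0.392 and 0.557 CPM in sham uterus (log2 fold change 7.22 ± 1.1; edgeR, adjusted p = 0.000753). Its receptor gene Cxcr5 rose to 6.95, 9.28, 2.59 and 12.4 CPM, against 0.116, 0.0706, 0.0713 and 0.118 CPM (log2 fold change 6.34 ± 0.94; adjusted p = 0.000535). Eutopic uterus lay at 0.284 to 0.558 and 0.0335 to 0.165 CPM, overlapping sham uterus. Cr2 and Fcer2a, the complement receptor CD21 and the low-affinity IgE receptor CD23 of B cells and follicular dendritic cells, rose by 7.4 ± 1.17 and 6.05 ± 0.91 (adjusted p = 0.000921 and 0.000621). Ccl19, a chemokine of T cell zones, stood at 0.679, 1.44, 0.312 and 2.71 CPM, against 0.0498, 0, 0 and 0.0506 CPM. In all, 10 of 12 lymph node and venule genes rose, 9 without lesion library 2. Chst4, a sulfotransferase, was the 1 that fell (adjusted p = 0.0452), and that call was lost without lesion library 1, 3 or 4 or sham library 1, 3 or 4.

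**Figure D4:**
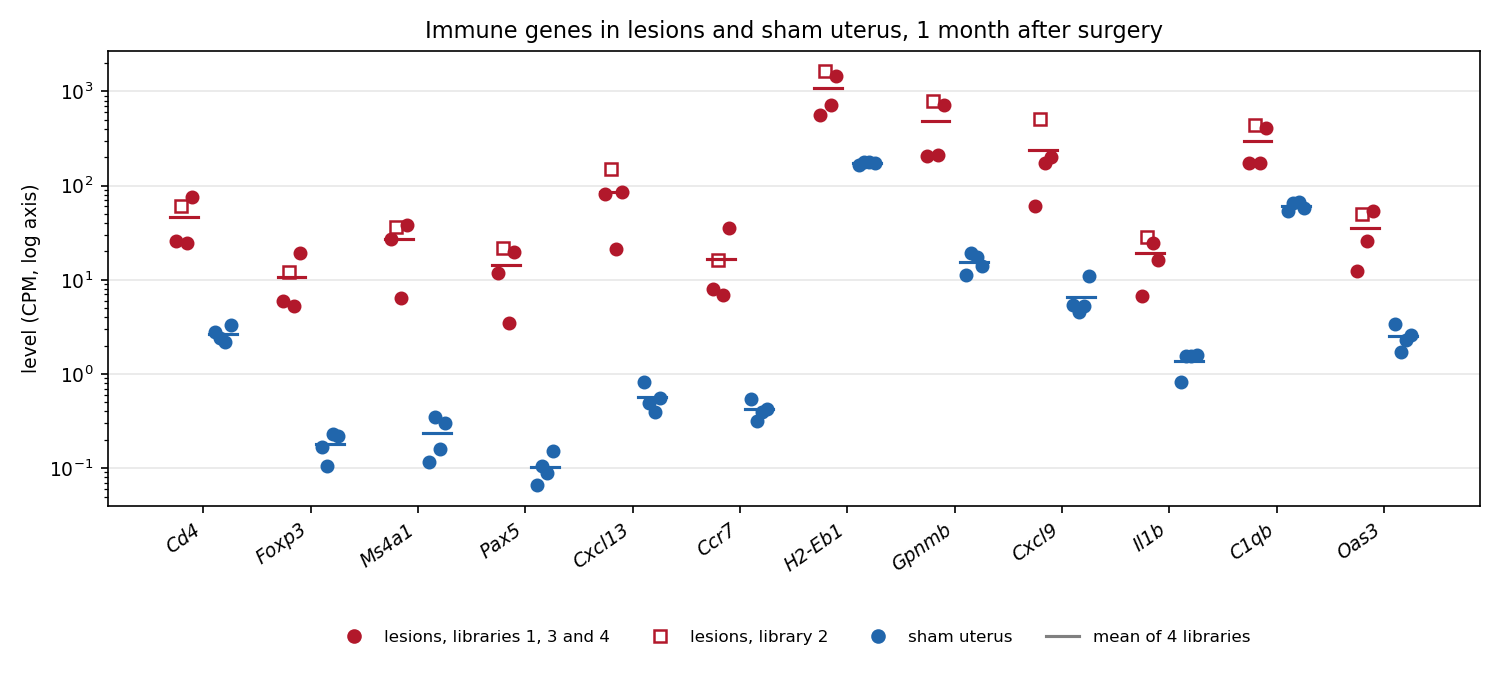
Level of 12 immune genes in each library (CPM, log axis), for lesions (red, left; open square, library 2) and sham uterus (blue, right) at 1 month, with bars at the mean of 4 libraries. In each gene all lesion libraries lie above all sham libraries, for example Cxcl13 at 21.2 to 149.6 CPM in lesions, against 0.392 to 0.814 CPM in sham uterus.

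Chemokines that draw other leukocytes rose with their receptors. Of 26 tested genes 22 rose and 0 fell (median 2.86), and 18 rose without lesion library 2 and 16 without sham library 1, 3 or 4. Cxcl9, the interferon-gamma-induced ligand of Cxcr3, rose to 60.3, 513, 174 and 202 CPM in lesions, against 5.46, 4.56, 5.23 and 10.8 CPM in sham uterus (log2 fold change 5.19 ± 1.14; edgeR, adjusted p = 0.00614). Cxcl2, a neutrophil attractant, rose to 6.04, 15.3, 13.2 and 6.24 CPM, against 0, 0.0177, 0.125 and 0.118 CPM (log2 fold change 7.24 ± 1.34; adjusted p = 0.00246). Ccr6, a receptor of B cells and subsets of T cells, rose by 5.64 ± 1.02 (adjusted p = 0.00224). Cxcl12 and Ccl11, chemokines of stromal cells, had log2 fold changes of -0.47 and 0.28 and were not called.

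Macrophage genes were higher, and lesion libraries 2 and 4 were the highest of them. Their list summed to 2811, 5305, 2229 and 5668 CPM in lesions, against 981, 1089.7, 1165 and 1035 CPM in sham uterus, without overlap. Gpnmb, a glycoprotein of lipid-laden and phagocytic macrophages, rose to 209, 794, 212 and 723 CPM, against 11.3, 19.05, 17.2 and 14.1 CPM (log2 fold change 4.97 ± 0.92; edgeR, adjusted p = 0.00245). Marco, a scavenger receptor of resident macrophages, rose to 6.53, 42.8, 2.73 and 7.42 CPM, against 0, 0.0177, 0.107 and 0.0506 CPM (log2 fold change 8.35 ± 1.4; adjusted p = 0.00121). Cd5l and Vsig4, both of tissue-resident macrophages, rose by 4.66 ± 1.07 and 4.94 ± 0.97 (adjusted p = 0.00748 and 0.00349). Of 22 tested members 19 rose, 13 without lesion library 4 or sham library 3 and 12 without lesion library 2, among those lost in that fit being Trem2, Arg1, Chil3 and Retnla. Gata6, the transcription factor that defines large peritoneal macrophages, was not called, at a log2 fold change of 0.18.

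Neutrophil genes were led by lesion library 2. S100a8, a calcium-binding protein of neutrophils and inflammatory monocytes, was at 4.11, 58.1, 7.598 and 12.9 CPM in lesions and 0.282, 0.847, 1.32 and 0.5399 CPM in sham uterus (log2 fold change 4.79 ± 1.13; edgeR, adjusted p = 0.00868), and 3.45 ± 1.01 (adjusted p = 0.0429) without lesion library 2. Mmp8, neutrophil collagenase, was at 0.983, 11.1, 0.697 and 6.97 CPM, against 0.0498, 0.177, 0.107 and 0.0506 CPM (log2 fold change 5.66 ± 1.04; adjusted p = 0.00245). The partner gene S100a9 lost its call without lesion library 2 (adjusted p = 0.0837) or sham library 4 (0.0511). The granule gene Ngp reached 72.9 CPM in lesion library 2 and did not exceed 1.05 CPM in the others, and was lost without that library (adjusted p = 0.335) or without sham library 1, 2 or 3 (0.0599, 0.05802 and 0.0691). Of 11 tested members 7 rose, and 4 of 11 without lesion library 2, with 4 also without sham library 1, 2 or 4.

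Genes of MHC class II presentation rose, among them its regulator. Ciita, the transactivator of class II genes, rose to 49.2, 170.3, 64.2 and 131 CPM in lesions, against 12.5, 13.03, 11.3 and 16.9 CPM in sham uterus (log2 fold change 2.95 ± 0.66; edgeR, adjusted p = 0.00687). H2-Eb1, a class II beta chain, rose to 556, 1630.0, 721 and 1475 CPM, against 167, 179, 178 and 173 CPM (log2 fold change 2.65 ± 0.63; adjusted p = 0.00934). Ccr7, the receptor that guides dendritic cells and T cells to lymph nodes, rose to 8.06, 16.1, 6.94 and 35.1 CPM, against 0.548, 0.318, 0.392 and 0.422 CPM (log2 fold change 5.29 ± 0.81; adjusted p = 0.000763). Of 18 tested members 15 rose, 10 without lesion library 2. Itgax, the CD11c integrin chain, was at 51.3 to 177 CPM in lesions, against 10.8 to 26.5 CPM in sham uterus, and its call (adjusted p = 0.0248) was lost without lesion library 2 or 4 or sham library 2, 3 or 4 (0.0646 to 0.0785).

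Inflammatory cytokines and complement were higher. Il1b, interleukin 1 beta, rose to 6.78, 28.6, 24.6 and 16.1 CPM in lesions, against 0.814, 1.54, 1.53 and 1.603 CPM in sham uterus (log2 fold change 3.79 ± 0.69; edgeR, adjusted p = 0.00224). Tnf, tumour necrosis factor, rose to 3.18, 16.8, 5.65 and 8.82 CPM, against 0.598, 0.671, 0.767 and 0.658 CPM (log2 fold change 3.67 ± 0.79; adjusted p = 0.00569), and Il1a and Il12b rose by 5.51 ± 0.89 and 4.55 ± 0.93 (adjusted p = 0.000959 and 0.00418). Of 22 tested cytokines 12 rose, 10 without lesion library 2, and Il6, Il17a and Ifng were not called, at log2 fold changes of 0.45, 0.15 and 2.77. Complement gave the same count with and without lesion library 2, with 11 and 11 of 20 genes higher. C1qb, a chain of the initiating C1q complex that macrophages make, rose to 175, 443, 173 and 413 CPM, against 54.3, 64.6, 67.3 and 58.4 CPM (log2 fold change 2.3 ± 0.56; adjusted p = 0.0101). C6 and C7, of the membrane attack complex, and Cfb, of the alternative pathway, rose by 3.05 ± 0.64, 3.87 ± 0.54 and 3.56 ± 0.78 (adjusted p = 0.00482, 0.0003501 and 0.00608). In C6 and C7 lesion libraries 1 and 4 were the highest, whereas library 2 was the highest in C1qb, Il1b and Tnf.

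Interferon-stimulated genes were higher in lesions, and the number called depended strongly on single libraries. Of 26 tested members 20 rose (median 1.62), 8 without lesion library 2, 7 without lesion library 4, 13, 8, 9 and 9 without sham libraries 1, 2, 3 and 4, and 26 of 26 with only the compared libraries in the fit. Oas3, an oligoadenylate synthase that triggers the decay of viral RNA, rose to 12.4, 49.7, 26.1 and 54.3 CPM in lesions, against 3.404, 1.71, 2.301 and 2.58 CPM in sham uterus (log2 fold change 3.83 ± 0.83; edgeR, adjusted p = 0.00579). Iigp1, an immunity-related GTPase, rose to 191, 979, 560.1 and 592 CPM, against 75.4, 38.4, 66.6 and 88.9 CPM (log2 fold change 3.11 ± 0.7; adjusted p = 0.00683), and Mx1, an antiviral GTPase, to 8.81, 21.5, 12.2 and 33.6 CPM, against 4.101, 1.92, 2.76 and 2.26 CPM (log2 fold change 2.78 ± 0.67; adjusted p = 0.009896). Lesion library 1 was the lowest lesion library in all 3 genes. Ifi202b (ENSMUSG00000026535.10), an interferon-inducible gene of a DNA-sensing family, had the largest rise among protein-coding genes with non-overlapping groups, a mean log2 CPM of at least 0 and a call with and without lesion library 2, to 15.4, 21.5, 11.97 and 23.9 CPM in lesions, against 0.08302, 0.05297, 0.0357 and 0.0675 CPM in sham uterus (log2 fold change 8.19 ± 1.1; adjusted p = 0.000312). Eutopic uterus of mice with endometriosis lay at 10.2 to 11.8 CPM, far above sham uterus, whereas in Oas3, Iigp1 and Mx1 eutopic uterus lay at 2.098 to 3.596, 54.5 to 89.5 and 1.999 to 3.75 CPM, overlapping sham uterus. By the labels eutopic and sham uterus share a genotype, while by the series text all mice with endometriosis carry Cre, in which case genotype and disease cannot be told apart for this gene.

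Promoters of 3 interferon-stimulated genes are shown because their rise held with and without lesion library 2 and because they carry the element through which interferon-activated factors are known to act. The sequences are from RefSeq, build GRCm38.p6, which is not the mm39 build of the counts. They are printed in the direction of transcription, with capitals marking each match to GAAA, 2 bases of any kind and GAAA, the core of the interferon-stimulated response element, or to its reverse complement. The windows are chr5:120777665-120777764 (minus strand) for Oas3, chr19:34583343-34583446 (plus strand) for Ifit3 and chr10:128270248-128270347 (plus strand) for Stat2, all upstream of the annotated start.
Oas3: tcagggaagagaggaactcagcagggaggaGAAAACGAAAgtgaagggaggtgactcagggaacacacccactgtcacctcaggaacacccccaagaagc
Ifit3: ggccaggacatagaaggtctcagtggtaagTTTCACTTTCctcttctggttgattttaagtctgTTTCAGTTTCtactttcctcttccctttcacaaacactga
Stat2: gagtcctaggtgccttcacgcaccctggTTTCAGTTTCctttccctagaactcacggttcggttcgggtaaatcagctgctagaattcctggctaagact
Ifit3 encodes an RNA-binding antiviral protein and Stat2 a subunit of the interferon-activated transcription factor itself; both were chosen for display after their values were seen. Ifit3 was at 15.4, 48.8, 32.5 and 55.1 CPM in lesions, against 10.6, 2.595, 7.53 and 8.57 CPM in sham uterus (log2 fold change 2.37 ± 0.64; edgeR, adjusted p = 0.0171), and Stat2 at 80.9, 199, 145 and 176 CPM, against 60.1, 45.4, 51.5 and 62.1 CPM (log2 fold change 1.45 ± 0.3; adjusted p = 0.00422). Without lesion library 2 the edgeR adjusted p was 0.0495 for Ifit3 and 0.0195 for Stat2. Of the 26 listed genes 20 had a promoter in the table, and 11 of those (55.0%) held the element within 300 bases, on either strand, against 1079 of 27025 genes in the table (3.99%). Of these 11, Oas1a and Bst2 were not called. A match describes the sequence only.

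Some genes of protein folding in the endoplasmic reticulum rose. Of 19 tested members 6 rose (9.46% of all tested genes did), 3 without lesion library 2 (4.90%), and 3 without sham library 4. Sdf2l1, a lumenal chaperone partner, rose to 43.8, 67.7, 42.3 and 46.4 CPM in lesions, against 23.4, 30.2, 21.6 and 16.99 CPM in sham uterus (log2 fold change 1.12 ± 0.22; edgeR, adjusted p = 0.00384). Dnajc3, a co-chaperone that relieves the translation block of the stress response, was chosen for display after its values were seen, because its promoter holds the stress element. It rose to 266, 252, 229 and 208 CPM, against 148, 165, 131 and 147 CPM (log2 fold change 0.69 ± 0.12; adjusted p = 0.00189), and by 0.66 ± 0.13 (adjusted p = 0.00755) without lesion library 2. The endoplasmic reticulum stress element, CCAAT, 9 bases of any kind and CCACG, is in capitals in the window chr14:118937797-118937896 (plus strand, GRCm38.p6, RefSeq), upstream of the annotated start.
Dnajc3: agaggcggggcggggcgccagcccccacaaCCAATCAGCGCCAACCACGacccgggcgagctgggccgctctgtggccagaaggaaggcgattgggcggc
It was found on either strand in 7 of the 18 listed genes with a promoter in the table (38.9%), against 37 of 27025 genes (0.137%). Besides Dnajc3, it was found in the promoters of Hspa5 and Creld2, which rose, and of Hsp90b1, Calr, Canx and Pdia6, which were not called. Hspa5, the chaperone BiP, overlapped between the groups, at 1200.5, 871, 1185 and 769 CPM in lesions and 556, 787, 612 and 516 CPM in sham uterus. Its call (adjusted p = 0.02399) was lost without lesion library 1 or 3 or sham library 1, 3 or 4 (0.0633 to 0.0822). That of Creld2, a resident protein of the same compartment (adjusted p = 0.0167), was lost without lesion library 2 (0.08301) or sham library 4 (0.0586), and that of Sel1l, of the degradation machinery (adjusted p = 0.0111), without lesion library 2 (0.0529), where it was at 440.3 CPM, against 242, 205 and 212 CPM in the other lesion libraries.

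Matrix remodelling genes rose in part, and the main collagens did not. Tnc, tenascin C, a matrix protein of wounds and remodelling tissue, rose to 241, 231, 307 and 163 CPM in lesions, against 30.5, 78.8, 44.8 and 31.97 CPM in sham uterus (log2 fold change 2.34 ± 0.46; edgeR, adjusted p = 0.00355). Col8a1, a short-chain collagen, rose to 36.02, 32.2, 28.3 and 22.97 CPM, against 4.91, 13.3, 5.47 and 4.201 CPM (log2 fold change 2.1 ± 0.49; adjusted p = 0.00801). The log2 fold changes of Col1a1, Col3a1 and Fn1 were -0.07, -0.19 and 0.16, and none was called. Thbs2 and Col12a1 were higher without overlap. The call of Thbs2 (log2 fold change 1.29; adjusted p = 0.0208) was lost without lesion library 2 or sham library 1, 3 or 4 (0.0515 to 0.0627), and that of Col12a1 (log2 fold change 1.6; adjusted p = 0.0373) in every fit but the one without lesion library 4 (0.0669 to 0.103). Of 24 tested members 6 rose and 1 fell (9.46% and 5.53% of all tested genes did). Without lesion library 2, 3 rose and 0 fell (4.90% and 2.74%). The rises numbered 2 without sham library 3 and 3 without sham library 1 or 4, and the fall, of the secreted protein Cthrc1, was also lost without lesion library 3 or 4 or sham library 3 or 4.

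Proteases of the matrix included one of the largest rises. Mmp12, macrophage elastase, rose to 118, 405, 169 and 345 CPM in lesions, against 0.481, 3.53, 1.43 and 0.118 CPM in sham uterus (log2 fold change 7.54 ± 1.34; edgeR, adjusted p = 0.00193). Ctss, cathepsin S, which trims the class II invariant chain in antigen-presenting cells, rose to 313, 1329, 456 and 1127 CPM, against 83.9, 97.6, 92.9 and 79.8 CPM (log2 fold change 3.19 ± 0.72; adjusted p = 0.006904). Mmp13, a collagenase, rose by 3.66 ± 0.8 (adjusted p = 0.00588). Mmp7, matrilysin, which epithelial cells make, was at 5.11, 35.5, 16.6 and 48.8 CPM, against 0.133, 0.2295, 1.59 and 0.169 CPM, and its call (adjusted p = 0.0214) was lost without lesion library 4 or sham library 1, 2 or 4 (0.0564 to 0.0663). Of 21 tested members 7 rose and 1 fell (9.46% and 5.53% of all tested genes did). There were 5 rises without lesion library 2 (4.90% of all tested genes) and 4 without lesion library 4 or sham library 1.

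Iron handling genes of macrophages and a haem scavenger moved in opposite directions. Slc11a1, the iron transporter of phagosomes, rose to 31.4, 104.8, 36.2 and 71.5 CPM in lesions, against 6.82, 10.6, 9.51 and 9.74 CPM in sham uterus (log2 fold change 2.73 ± 0.59; edgeR, adjusted p = 0.00583). Cp, the ferroxidase ceruloplasmin, rose to 143, 299.7, 230.4 and 358 CPM, against 73.9, 38.5, 64.2 and 58.97 CPM (log2 fold change 2.13 ± 0.41; adjusted p = 0.00335). Hpx, hemopexin, which binds free haem, fell to 0.197, 0.186, 0.202 and 0.419 CPM, against 2.37, 2.07, 2.28 and 1.32 CPM (log2 fold change -2.98 ± 0.37; adjusted p = 0.000144). Slc7a11, the cystine importer, was at 66.8, 78.7, 71.5 and 86.5 CPM, against 13.5, 19.9, 7.78 and 13.1 CPM, without overlap, and its call (adjusted p = 0.0282) was lost without lesion library 2 or 4 or sham library 1, 3 or 4 (0.05797 to 0.0892). In total 6 of 23 members rose and 2 fell (9.46% and 5.53% of all tested genes did). Without lesion library 2, 4 rose and 2 fell (4.90% and 2.74%).

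Of the vessel and nerve genes that were called, 3 and 4 were lower in lesions and 1 and 2 higher (5.53% of all tested genes were lower and 9.46% higher). Tek, the angiopoietin receptor Tie2 of endothelium, fell to 48.8, 35.4, 42.9 and 36.9 CPM in lesions, against 95.2, 62.9, 91.7 and 93.6 CPM in sham uterus (log2 fold change -1.07 ± 0.23; edgeR, adjusted p = 0.00541). The related receptor Tie1 fell too (log2 fold change -0.9 ± 0.23; adjusted p = 0.013), with sham library 2 inside the lesion range at 52.1 CPM. Cldn5, the tight junction protein of endothelium, was at 14.5 to 18.1 CPM, against 22.1 to 26.6 CPM, and its call (adjusted p = 0.0209) was lost without lesion library 4 (0.0719) or sham library 3 (0.0558). Angpt4, a Tie2 ligand, was higher, at 2.18 to 4.15 CPM, against 0.697 to 1.79 CPM, and its call (adjusted p = 0.0317) was lost without lesion library 1 or 3 or sham library 1, 2 or 3 (0.0575 to 0.0924). These 4 were the called genes of 21 tested, and Vegfa, Kdr and Pecam1 were not among them. Gap43, a growth cone protein, fell to 7.42, 2.02, 9.91 and 7.35 CPM, against 19.2, 21.2, 25.1 and 14.9 CPM (log2 fold change -1.59 ± 0.37; adjusted p = 0.00841). Ntrk3, the neurotrophin 3 receptor, rose to 16.8, 13.9, 15.6 and 11.6 CPM, against 7.49, 6.53, 6.94 and 8.12 CPM (log2 fold change 1.0 ± 0.24; adjusted p = 0.00935). Bdnf, a neurotrophin, was higher at 0.697 to 1.36 CPM, against 0.0506 to 0.565 CPM, and was lost without lesion library 2 (adjusted p = 0.0552). The glial factor Sox10, at 0 to 0.279 CPM in lesions and 0.232 to 1.13 CPM in sham uterus, overlapped, and its call (adjusted p = 0.0283) was lost without lesion library 1, 2 or 3 or sham library 2 (0.0566 to 0.0965) and with only the compared libraries (0.0572). Of 16 nerve genes tested, 4 were lower with all libraries, and 2 genes were lower without lesion library 1 or 3 or sham library 2.

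Enzymes of local steroid metabolism included some of the steepest falls. Cyp3a59 and Cyp3a57, cytochromes P450 of a family that hydroxylates steroids, fell to 0.0179, 0, 0.2202 and 0.0349 CPM and 0.107, 0.0266, 0.349 and 0.0699 CPM in lesions, against 17.4, 12.02, 9.58 and 12.6 CPM and 7.69, 6.797, 3.03 and 8.25 CPM in sham uterus. Their log2 fold changes were -7.45 ± 0.79 and -5.48 ± 0.67 (edgeR, adjusted p = 8.99e-05 and 0.000144), and as close paralogs they may share reads. Hsd11b1, which regenerates active corticosterone, rose to 16.3, 26.1, 11.6 and 26.04 CPM, against 4.4, 2.51, 4.01 and 4.42 CPM (log2 fold change 2.38 ± 0.53; adjusted p = 0.00676), while Hsd11b2, which inactivates it, fell as given above. Srd5a2, a steroid 5-alpha reductase, was at 0.411, 0.878, 0.239 and 0.751 CPM, against 0.0332, 0.0353, 0.0178 and 0 CPM, and its call (adjusted p = 0.0457) was kept in the fit without lesion library 3 and lost in the other 7 (0.0539 to 0.114). Of 13 tested members 2 rose and 3 fell (9.46% and 5.53% of all tested genes did), and 1 and 2 without lesion library 2 (4.90% and 2.74%).

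Wnt ligands and antagonists were higher in a few genes. Wnt2, a stromal ligand, rose to 7.83, 6.54, 6.26 and 5.55 CPM in lesions, against 0.814, 0.883, 1.02 and 0.574 CPM in sham uterus (log2 fold change 2.99 ± 0.41; edgeR, adjusted p = 0.000312). Sfrp1, a secreted Wnt antagonist, rose to 184, 147, 132 and 148 CPM, against 40.6, 59.8, 36.5 and 28.5 CPM (log2 fold change 1.88 ± 0.35; adjusted p = 0.00261). Wnt7b, an epithelial ligand, was at 4.93, 17.7, 12.8 and 12.7 CPM, against 0.731, 0.636, 1.43 and 0.557 CPM, with a call (adjusted p = 0.0161) lost without sham library 2 (0.0503) or 4 (0.0518). Notum, an extracellular inactivator of Wnt proteins, was at 4.505, 9.73, 5.03 and 3.62 CPM, against 1.34, 1.34, 1.43 and 1.16 CPM, with a call (adjusted p = 0.0274) lost without lesion library 2 or any 1 sham library (0.0602 to 0.101). These were the 4 rises among 22 tested members (9.46% of all tested genes rose), against 2 rises without sham library 2 or 4. Fzd2, a receptor, fell to 89.4, 56.3, 87.01 and 70.7 CPM in lesions, against 129, 142, 131 and 135 CPM in sham uterus (log2 fold change -0.82 ± 0.13; adjusted p = 0.000835).

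Few cell cycle genes were called in the fit of all libraries, and lipid synthesis genes were called in part. All 25 of 25 cell cycle genes had a positive log2 fold change, with a median of 0.5. With only the compared libraries in the fit, 7 rose and 0 fell (16.7% and 12.9% of all genes tested there did). In the fit of all libraries 3 rose, where 9.46% of all tested genes did. These were Ccne1, E2f1 and Pcna, which rose by 1.04 ± 0.3, 0.72 ± 0.22 and 0.51 ± 0.14 (edgeR, adjusted p = 0.0224, 0.0328 and 0.0219). All 3 calls were lost without lesion library 2 (adjusted p = 0.0643, 0.0848 and 0.0513), lesion library 3 (0.0655, 0.105 and 0.0844) or sham library 2 (0.05302, 0.0754 and 0.0614), and 1 was called without sham library 1, 3 or 4. Of 22 lipid and cholesterol genes 5 rose (9.46% of all tested genes did), and 15 with only the compared libraries in the fit (16.7% of all genes tested there). Scd1, the desaturase that makes oleate and is abundant in fat, rose to 1504, 309, 220.0 and 944 CPM in lesions, against 65.3, 68.5, 83.3 and 74.1 CPM in sham uterus (log2 fold change 3.35 ± 0.75; adjusted p = 0.00676). Lesion libraries 1 and 4 were highest, the same 2 that held the most adipocyte transcripts, and the part of fat in this rise was not tested. Abcg1, a sterol exporter of macrophages, rose to 37.1, 84.6, 35.7 and 96.1 CPM, against 22.8, 12.99, 19.7 and 20.04 CPM (log2 fold change 1.75 ± 0.42; adjusted p = 0.00958). The call of Insig1, a regulator of sterol synthesis, was lost without lesion library 2 (adjusted p = 0.0518) or sham library 2 (0.0517). The list had 3 rises in each fit that left out lesion library 2 or 4 or any 1 sham library. The sterol regulatory element, ATCAC, 1 base of any kind and CCAC, was found on either strand in 0 of its 13 promoters in the table, and in 73 of 27025 genes (0.270%).

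Genes were also ranked by size under a rule. They were protein-coding, had non-overlapping groups and a mean log2 CPM of at least 0, and were called with and without lesion library 2. The 10 largest rises were Ifi202b, Mmp12, Ubd, Cxcl13, Pax5, Ms4a1, Prap1, Foxp3, H2-M2 and Clec4e. The floor on the mean left out genes near 0 in sham uterus with larger rises, such as Sprr2b and Marco (log2 fold changes 9.95 and 8.35). Groups did not overlap in 16.4% of all tested genes with lesions higher and in 14.1% with lesions lower, and 768 genes met the whole rule for rises and 353 that for falls. Ubd, a ubiquitin-like protein induced by interferon-gamma and tumour necrosis factor, was at 3.95, 75.4, 19.9 and 41.6 CPM in lesions, against 0.0996, 0.406, 0.125 and 0.304 CPM in sham uterus (log2 fold change 7.22 ± 1.38; edgeR, adjusted p = 0.00303). H2-M2, a non-classical MHC class I gene, was at 8.17, 66.8, 25.5 and 66.4 CPM, against 0.598, 1.31, 0.785 and 0.253 CPM (log2 fold change 5.82 ± 1.11; adjusted p = 0.00297). Clec4e, the myeloid receptor Mincle, was at 5.202, 44.95, 9.01 and 13.7 CPM, against 0.332, 0.2295, 0.446 and 0.27 CPM (log2 fold change 5.82 ± 1.1; adjusted p = 0.00285). Prap1, a secreted proline-rich protein of uterine and intestinal epithelium, stood at 5.43, 19.8, 25.7 and 327 CPM, against 0.8302, 1.91, 0.589 and 0.439 CPM, and 1 lesion library decided its call (log2 fold change 6.65 ± 1.54; adjusted p = 0.00804, and 0.0571 without lesion library 4).

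Among the 10 largest falls under the same rule, Cxcl15 and Wfdc3 belong to the gland list described above. The floor on the mean left out larger falls, such as Prss29, Cyp3a59 and Cyp3a57 (log2 fold changes -8.87, -7.45 and -5.48). Tmprss11g, a membrane-bound serine protease, fell to 0.411, 1.78, 0.532 and 0.541 CPM in lesions, against 23.2, 41.9, 20.4 and 47.6 CPM in sham uterus (log2 fold change -5.38 ± 1.05; edgeR, adjusted p = 0.00335). Hrk, a pro-apoptotic BH3-only protein, fell to 0.8402, 0.0798, 0.0918 and 0.1397 CPM, against 12.3, 9.02, 14.6 and 11.4 CPM (log2 fold change -5.32 ± 0.85; adjusted p = 0.000948). Slc12a3, the thiazide-sensitive sodium chloride cotransporter, fell to 0.411, 0.532, 0.661 and 0.349 CPM, against 5.78, 7.73, 3.12 and 2.55 CPM (log2 fold change -3.29 ± 0.7; adjusted p = 0.005104), with eutopic uterus at 0.7696 to 2.49 CPM. In each of these 3 genes the highest lesion library lay below the lowest sham library. The remaining falls were Krt83, Topaz1, BC030500, St6gal2 and Lrrc3b, with log2 fold changes of -4.18, -3.54, -3.5, -3.29 and -3.24. St6gal2 encodes a sialyltransferase and Krt83 a hair keratin. Their levels were at most 1.64 CPM in any lesion library, and every call in these 10 genes held in all 8 fits that left out 1 library.

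**Figure D5:**
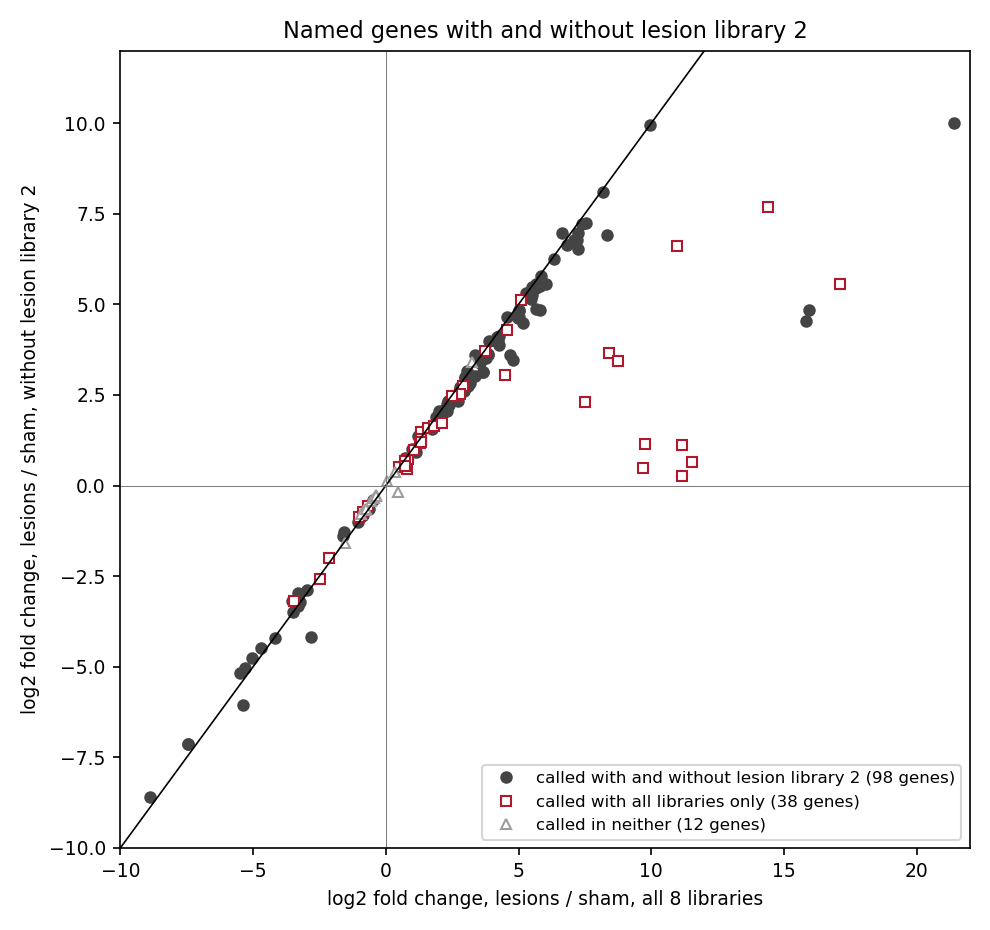
Log2 fold change of lesions over sham uterus for the 148 named genes with all 8 libraries (x axis) and without lesion library 2 (y axis), with the line of equal values. Of these genes 98 were called both ways, 38 with all libraries only and 12 in neither; pancreas and muscle genes fall far below the line, while most others lie near it.

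Eutopic uterus at 1 month gave a second view of the same genes. Its summed levels were 88.4 to 95.4 CPM of T cell genes, 1064 to 1250.1 CPM of macrophage genes and 922 to 1151 CPM of class II and dendritic cell genes, each below the lowest lesion library. Foxa2 was at 15.7 to 19.8 CPM and Cxcl15 at 54.97 to 78.7 CPM in eutopic uterus, above all lesion libraries, and Ltf at 37.3 to 122 CPM, between the lesion and the sham libraries. These comparisons with eutopic uterus are descriptions of levels.

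Cell types with few or no called members in the fit of all libraries were also counted. The lists of ciliated cell and red blood cell genes held 0 called members of 14 and 8 tested, and with only the compared libraries 5 of 11 and 4 of 6 tested were lower and 0 and 0 higher. Of all genes tested there, 12.9% were lower and 16.7% higher. Of 16 genes of natural killer and cytotoxic cells 1 was higher (median 0.75), and 0 without lesion library 2 or 4 or sham library 1, 2 or 4. The log2 fold change was positive in 13 of them. With only the compared libraries, 6 of 16 were higher and 0 lower (16.7% and 12.9% of all genes tested there). Uterine natural killer cells are the main lymphocytes of the mouse decidua. Their list summed to 183, 314, 274 and 338 CPM in lesions, against 202, 128, 202 and 176 CPM in sham uterus. Of 13 mast cell and eosinophil genes 1 was lower, a call lost without lesion library 1, 3 or 4 or sham library 1 or 4.

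At 3 months, 9258 of 22249 genes were called between lesions and sham uterus in the same fit (41.6%), but 2600 of 20068 (13.0%) with only the 8 libraries of that time, 7.82% higher and 5.13% lower. In the fit of all libraries, the T cell list had 20 members higher at 1 month and 20 at 3 months, with medians of 3.12 and 3.71. Of all tested genes 9.46% and 23.2% were higher at these times. The gland list had 5 lower at 1 month and 6 at 3 months, where 5.53% and 18.4% of all tested genes were lower. Pgr and Esr1, not called at 1 month, had log2 fold changes of -2.26 ± 0.6 and -1.69 ± 0.27 at 3 months (edgeR, adjusted p = 0.00529 and 9.29e-05). Tested directly, the lesion minus sham difference changed between 1 and 3 months in 465 genes (2.09%), 262 upward (1.18%) and 203 downward (0.912%), and neither Pgr (change -1.9, adjusted p = 0.219) nor Esr1 (change -1.12, adjusted p = 0.105) was among them. With only the 16 lesion and sham libraries of both times in the fit, 0 genes were called for this change by edgeR and 3021 had an unadjusted p under 0.05, while DESeq2 on all libraries called 1345. Single libraries also decided that count, which ranged from 80 without lesion library 1 or 3 at 1 month to 1672 without lesion library 3 at 3 months. Mice at 3 months were also older, and those with endometriosis are labelled subfertile, so time, age and fertility cannot be told apart.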

How the data were processed

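Total RNA was sequenced (TruSeq libraries) from 24 samples in 6 groups of 4, of which lesions and sham uterus at 1 month, 4 libraries each, are compared. The deposited values are raw read counts per gene for 56691 genes, with totals of 4.51e+07 to 5.91e+07 in the 8 compared libraries. Per the submitters' processing notes, the authors used bcl2fastq 1.9.0, STAR 2.7.9a, the mm39 build and edgeR. The sources used here do not give the annotation, the counting mode or the use of strand. Reads of overlapping, antisense and closely related genes cannot be told apart. All 24 columns were matched to samples by their names.

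Counts were tested with edgeR 4.0.16 in R 4.3.3 (TMM factors, filterByExpr, glmQLFit and glmQLFTest on group means of all 24 libraries, Benjamini-Hochberg adjustment over 22249 genes, called at an adjusted p under 0.05). The standard error of a log2 fold change was taken as its size over the square root of the quasi-likelihood F. On simulated counts for the 1 month comparison over 22249 genes, 55 of 100 genes changed 2-fold and 86 of 100 changed 4-fold were called. These had mean counts of at least 50, and 8 unchanged genes were called. Each simulated gene had the same spread in all groups, and no library differed as lesion library 2 did. The simulation therefore checks the procedure and does not give the error rate in the real libraries. Alternatives were DESeq2 1.42.0, its size factors within edgeR, limma 3.58.1 voom with sample weights, no filter, only the compared libraries, a replicate block, and each library left out. Lesion library 2 was left out as a second reading of each result.

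Named genes were a panel of 10 uterine genes, the 10 largest rises and falls called with and without lesion library 2 with groups that do not overlap and a mean log2 CPM of at least 0, the 5 largest rises called only with lesion library 2, and up to 4 called members of each described list (of other tissues' lists, the 2 highest in lesions). The members, lists and this rule were chosen with earlier results of these data known, and some list members, such as Spink1, Ifit3, Stat2, Dnajc3, Jchain, Trem2, Col1a1, Greb1, Vegfa, Gata6, Ifng and Fzd2, were named after their values were seen. Promoters were taken from RefSeq (GRCm38.p6) by gene symbol. Some genes that met the naming rule are not reported here.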

Additional observations from a re-analysis of the deposited data

Results flagged for a closer look

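In 46 of 306 groups of 4 libraries examined, 1 library stood far from the other 3. The groups were those of named genes and lists. Some of these genes were named because their call depended on lesion library 2, so the count cannot be set against chance. Lesion library 2 was the one that stood apart more often than any other single library. Its summed levels were 133275 CPM for pancreas genes and 1797 CPM for skeletal muscle genes, with 6.31 to 29.8 and 137 to 257 CPM in the other lesion libraries. Among pancreas genes it held 25582 CPM of Ctrb1 (0 to 4.29 in the other lesion libraries), 19678 of Pnlip (0.0536 to 3.27), 14307 of Cela1 (5.20 to 6.90), 9545 of Cpb1 (0.358 to 1.76), 6036 of Pnliprp1 (0.0536 to 1.16), 5114 of Ctrl (0.465 to 1.71), 4890.1 of Rnase1 (0.304 to 0.954), 3698 of Cela3b (0 to 0.541) and 1092 of Klk1 (0.250 to 1.22). Among muscle genes it held 232 CPM of Atp2a1 (0.419 to 5.76), 219 of Myh1 (0.0184 to 8.13), 198 of Myh4 (0 to 1.38) and 33.7 of Pvalb (0.0734 to 0.358). It also held 42.8 CPM of the macrophage gene Marco (2.73 to 7.42), and of neutrophil genes 72.9 of Ngp (0.192 to 1.05), 78.3 of S100a9 (4.97 to 15.4) and 58.1 of S100a8 (4.11 to 12.9). Foxa2 was at 7.50 CPM in it (0.554 to 1.69 in the others), Tmprss11g at 1.78 (0.411 to 0.541), Sdf2l1 at 67.7 (42.3 to 46.4) and Sel1l at 440.3 (205 to 242).

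Other lesion libraries stood apart in single genes. Library 1 held 18.6 CPM of Muc16 (5.82 to 7.72 in the others), 0.840 of Hrk (0.0798 to 0.140) and 1.04 of Lrrc3b (0.771 to 0.786). Library 3 held 0.220 CPM of Cyp3a59 (0 to 0.0349) and 0.0734 of Prss29 (0 in the others), and library 4 held 327 CPM of Prap1 (5.43 to 25.7) and 0.419 of Hpx (0.186 to 0.202).

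In sham uterus, library 1 was low in the summed pancreas list at 4.96 CPM (6.66 to 6.99 in the others), in Cela1 at 2.97 (4.601 to 4.89) and in Il1b at 0.814 (1.53 to 1.60), and was the one with any Sprr2b, at 0.0498, and Cela3b, at 0.0166. Sham library 2 was low in the endothelial genes Tek at 62.9 CPM (91.7 to 95.2), Tie1 at 52.1 (98.6 to 103) and Cldn5 at 22.1 (26.0 to 26.6), and high in Col8a1 at 13.3 (4.20 to 5.47). Sham library 3 was high in Spp1 at 36.8 CPM (14.1 to 17.4), Il1rn at 1.37 (0.641 to 0.731), Slc26a4 at 1.07 (0.547 to 0.591) and Mmp7 at 1.59 (0.133 to 0.230), and low in Il6st at 1039 (1358 to 1421). Sham library 4 was high in Cxcl9 at 10.8 CPM (4.56 to 5.46) and Muc16 at 4.47 (3.57 to 3.69).

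For 10 named genes the lesion minus sham difference changed between 1 and 3 months in the edgeR fit of all libraries. On the log2 scale, 3 months minus 1 month, the change was -13.48 for Cpb1, -13.03 for Rnase1, -10.64 for Ctrl and -8.90 for Cela1, the pancreas genes of lesion library 2. It was -2.64 for Hsd11b2, -2.71 for Gap43, -1.68 for Ccne1, -0.93 for Pcna, 2.51 for Hpx and 0.96 for Cldn5. Adjusted p-values were 0.0202 to 0.0489 in that fit and 0.101 to 0.195 with only the lesion and sham libraries of both times, where none of the 10 was called.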

How the results depend on the processing

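Direction was kept by all 148 named genes under DESeq2, its size factors in edgeR, voom, no filter, only the compared libraries and the replicate block, where each could be fitted. Under the size factors all 148 also kept their side of the threshold. Of the named genes 10 no longer had a call under DESeq2 and 3 gained it. Those without a call include Cpb1, Rnase1, Ctrl, Klk1 and Cela1, to which DESeq2 gave no adjusted p. Losses and gains were 16 and 6 under voom, 11 and 0 without a filter, and 1 and 6 with only the compared libraries. They were 11 and 4 with those and the replicate block, and 9 and 5 with only those and without lesion library 2. These counts with only the compared libraries cover genes that the filter kept. With only those 8 libraries it left out Ctrb1, Pnlip, Cela3b, Pnliprp1, Myh4, Myh1 and Pvalb. Including them, 8 called named genes had no call there. Leaving out 1 library ended 8 to 24 calls of named genes, except lesion library 2, without which 38 ended. The direction reversed for 2 genes that were not called. Aldh1a2 was at a log2 fold change of 0.04 with all libraries and at -0.0037, -0.029 and -0.0794 without lesion library 1, lesion library 4 and sham library 1, in a range of -0.0794 to 0.2012 with 1 library left out. Acta1 was at 0.47 with all libraries, at -0.17 to 0.77 with 1 library left out, the lowest without lesion library 2, and at -0.18 when only the compared libraries were also used. The count of 3335 genes at 1 month was 7695 under voom and 5923 with only the compared libraries, and 1720 to 3250 with 1 library left out. Without a filter it was 2600 of 40184 genes. At 3 months the count of 9258 was 2600 with only the compared libraries and 7841 to 10917 with 1 library left out. For the change of the difference from 1 to 3 months, the count of 465 was 1345 under DESeq2, 253 without a filter, 731 under voom, 0 with only the compared libraries and 80 to 1672 with 1 library left out. The alternatives at 3 months and for the change were chosen after seeing the data. The cause of these shifts was not tested. The deviations of lesion and sham libraries with the same number correlated at -0.01, 0.02, -0.02 and 0.03 across genes. No lesion library exceeded 0.037 with any sham library, so these values cannot decide whether the replicate numbers pair the samples. With the replicate block the counts were 4831 at 1 month, 0 at 3 months (edgeR; 5205 at an unadjusted p under 0.05) and 4 for the change. The depth of each library limits genes of a few counts, such as Myh4, Sprr2b and Cela3b in sham uterus.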
